A study of Homo sapiens with 11 samples.

Results

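Integrins are the receptors with which a cell holds on to the matrix around it, and laminins are a main part of the basement membrane to which many integrins bind. The genes described here were all features of the deposited table whose symbol follows the naming scheme of integrin alpha chains (ITGA), integrin beta chains (ITGB) or laminin chains (LAMA, LAMB, LAMC). The rule gave 38 genes of 60605 listed features. They were 18 integrin alpha chains, 8 integrin beta chains, 5 laminin alpha chains, 4 laminin beta chains and 3 laminin gamma chains.

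RNA was sequenced from stable lines of ARPE-19, an established human cell line from the retinal pigment epithelium (RPE, the pigmented layer beneath the photoreceptors). Each line expressed an open reading frame for 4 days: GFP, a fluorescent protein used as the control (3 libraries), or the transcription factors Oct4, Sox2 or Klf4, or Oct4, Sox2 and Klf4 in the line named OSK (2 libraries each). The library names of the 4 factor lines carry the letters mC, whose meaning, like the vector, the promoter and the species of the open reading frames, is not given in the sources used here. Nothing in the labels states whether each line is 1 clone or whether replicates came from separate cultures, so p-values measure the spread between these libraries, which may be technical. Per the series' design text, the data were used to look at oxidative effector genes induced by the factors.

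An integrin is a pair of 1 alpha and 1 beta chain, and the pair sets which matrix protein is bound. Pairs of ITGB1 with ITGA3, ITGA6 or ITGA7, and the pair of ITGA6 with ITGB4, bind laminins. Pairs of ITGB1 with ITGA1, ITGA2, ITGA10 or ITGA11 bind collagens, and ITGA5 and the ITGAV pairs bind fibronectin, vitronectin and similar ligands through a short arginine-glycine-aspartate motif. A laminin is a trimer of 1 alpha, 1 beta and 1 gamma chain, and trimers with different alpha chains mark different basement membranes. The RPE rests on such a sheet in Bruch's membrane, to which its basal side is attached.

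Values are normalised read counts, and recovered read totals ran from 15053300 to 19791775 per library. GFP replicate 1 stood apart, with 42956 features detected against 25853 to 26971 in 9 libraries, and with reads on 67.7% of 405 olfactory receptor genes, which these cells are not known to use. OSK replicate 1 stood apart less, with 32493 features and 23.0% of those receptors, against 4.94% to 8.15% in the other 9 libraries. The delivered factor genes matched the labels: POU5F1 (Oct4) was 66823 to 67326 in the Oct4 line and 252 to 276 in GFP, SOX2 was 29106 to 29141 in the Sox2 line and 43.7 to 82.4 in GFP, and KLF4 was 22142 to 24205 in the Klf4 line and 45.5 to 124 in GFP. In OSK they were at 19020 to 19542, 17582 to 17764 and 24202 to 24470. Of 18 RPE markers, 12 to 14 were at 10 or above in each library. RPE65, a defining enzyme of mature RPE, was at most 4.63 in any library, DCT at most 9.93, TTR at most 4.97 and RLBP1 at most 39.3. PAX6, OTX2 and MITF were at 747.5 or above in every library. MITF was 3263, 3354 and 3603 in GFP and 790 and 747.5 in Sox2.

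Of the 38 genes, 19 were at 100 or above in every library. Another 15 stayed under 100 in every library other than GFP replicate 1. A filter on low values (at least 10 in at least 2 libraries) was passed by 32 of the 38, and 18828 genes passed it in all. The 6 that did not pass were ITGA8, ITGA9, ITGAD, ITGAX, ITGB6 and LAMB4. By an F test over the 5 groups, 23 of the 32 differed among the groups at an adjusted p under 0.05 (limma), against 65.7% of all genes tested.

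Promoters of 26 of the 38 genes were in the RefSeq table used (GRCh38.p14), in 33 windows of 250 bases before a transcription start. Short motifs linked to the 3 factor families were searched on both strands as letters: GGGNGTG for KLF factors, CATTGTT for SOX factors and ATGCNAAT for the octamer of Oct4. GGGNGTG was found in 13 of the 33 windows (39.4%), against 27.1% of all 35116 windows of the same length. These 13 windows belong to 11 of the 26 genes. Some genes have more than 1 window, and windows of LAMB3 overlap, so the same match can count more than once. Neither CATTGTT nor ATGCNAAT was found in any of the 33, against 2.87% and 2.69% of all windows. The GC box GGGCGG, added after the values were seen, was in 17 windows (51.5%) from 14 genes, against 42.6% of all windows. Its letters can overlap those of GGGNGTG. A match is a description of letters and not a binding site. The 4 windows below are shown because these genes behaved differently across the lines, as described further on: LAMA5 rose in Klf4 and OSK, LAMC1 rose in Sox2 and OSK, ITGAV rose in Oct4 and Sox2, and ITGA11 fell in Klf4 and OSK. They are chr20:62367313-62367562 (minus strand), chr1:183023170-183023419 (plus), chr2:186589806-186590055 (plus) and chr15:68432164-68432413 (minus), read 5′ to 3′ along the gene. Capitals mark matches to any of the 4 motifs on either strand.
LAMA5: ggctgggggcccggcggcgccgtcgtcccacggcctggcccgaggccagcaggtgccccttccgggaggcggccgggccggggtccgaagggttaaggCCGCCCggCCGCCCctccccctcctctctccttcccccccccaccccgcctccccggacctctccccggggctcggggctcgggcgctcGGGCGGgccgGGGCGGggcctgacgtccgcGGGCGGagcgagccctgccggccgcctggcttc
LAMC1: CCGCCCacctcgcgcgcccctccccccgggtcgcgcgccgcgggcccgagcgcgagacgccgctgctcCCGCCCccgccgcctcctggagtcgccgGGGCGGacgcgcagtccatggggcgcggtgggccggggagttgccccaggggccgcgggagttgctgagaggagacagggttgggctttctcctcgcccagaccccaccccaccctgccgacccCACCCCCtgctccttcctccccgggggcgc
ITGAV: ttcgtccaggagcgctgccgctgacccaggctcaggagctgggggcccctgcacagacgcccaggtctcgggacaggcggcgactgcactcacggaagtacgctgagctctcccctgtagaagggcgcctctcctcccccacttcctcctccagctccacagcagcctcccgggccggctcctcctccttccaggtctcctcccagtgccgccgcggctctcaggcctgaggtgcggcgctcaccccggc
ITGA11: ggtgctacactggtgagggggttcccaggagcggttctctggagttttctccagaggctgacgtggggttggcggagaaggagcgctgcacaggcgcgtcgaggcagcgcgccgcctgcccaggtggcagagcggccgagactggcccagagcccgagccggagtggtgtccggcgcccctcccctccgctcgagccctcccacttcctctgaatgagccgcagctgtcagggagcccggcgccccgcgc
The LAMA5 window held 5 GC boxes and no GGGNGTG. The LAMC1 window held 3 GC boxes and 1 GGGNGTG, and the windows of ITGAV and ITGA11 held none of the 4 motifs. ITGAV has a further window in the table, not shown, with 1 GGGNGTG.

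In the comparison of the Oct4 line with GFP, 16 of the 32 tested integrin and laminin genes passed the test, 11 higher and 5 lower. Among all genes tested 37.3% passed, 20.1% higher and 17.2% lower. In Sox2, 23 passed, 14 higher and 9 lower, against 41.6% of all genes, 21.7% higher and 19.9% lower. In Klf4, 20 passed, 9 higher and 11 lower, against 33.5%, 17.6% and 16.0%. In OSK, 17 passed, 8 higher and 9 lower, against 39.7%, 19.7% and 20.0%. These 4 comparisons share the GFP libraries. The changes were also larger in size than over all genes: the median absolute log2 change of the 32 was 0.78 in Oct4, 1.07 in Sox2, 0.93 in Klf4 and 0.72 in OSK, and that of all genes tested was 0.37, 0.41, 0.34 and 0.38. Without GFP replicate 1 the counts were 20, 21, 19 and 20, and without it and OSK replicate 1 they were 21, 21, 18 and 15. Without Sox2 replicate 1 the Sox2 count was 13, and without Klf4 replicate 1 the Klf4 count was 13.

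**Figure D1:**
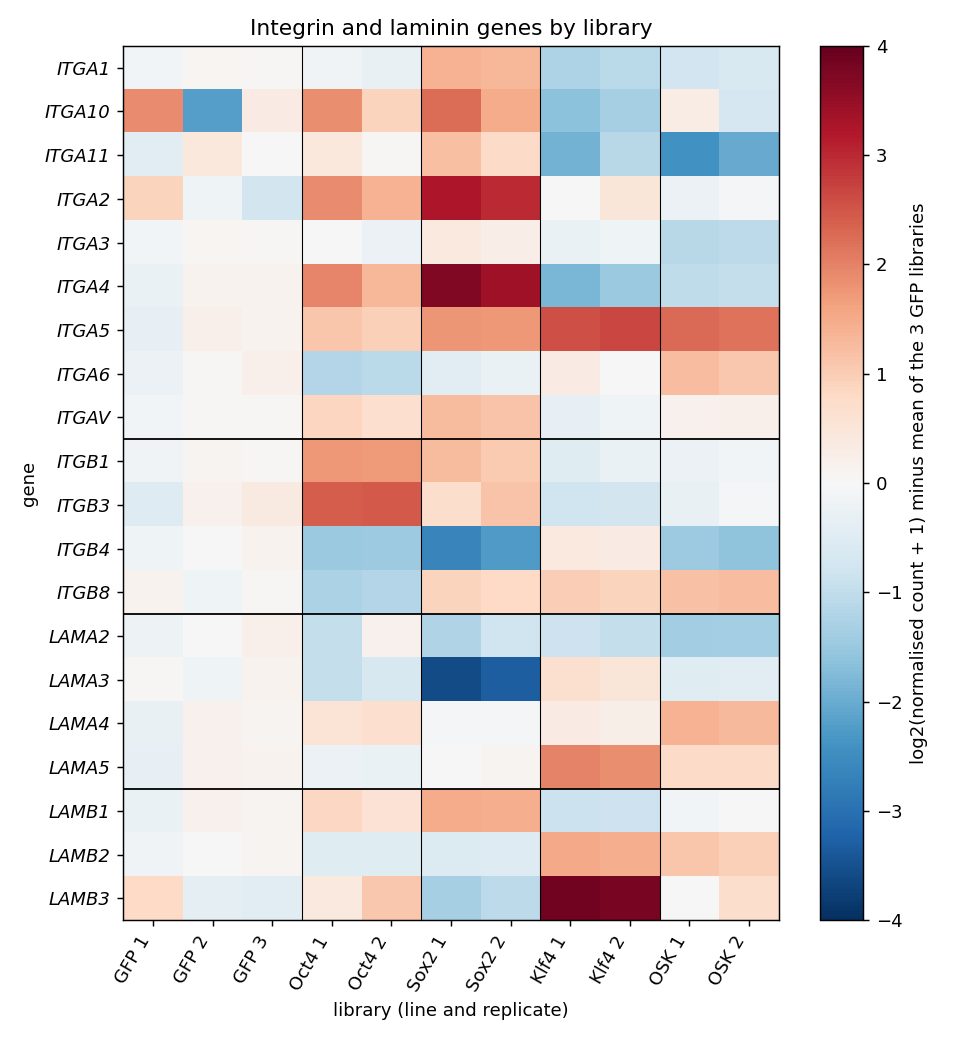
Heat map of log2(normalised count + 1) minus the mean of the 3 GFP libraries (colour scale, -4 to 4) for the 20 integrin and laminin genes described with tests (rows), in each of 11 libraries (columns); thick lines part the chain families and thin lines the cell lines. ITGA4 is dark red in both Sox2 libraries (log2 change 3.55 on average), LAMA3 dark blue there (-3.44), and LAMB3 dark red in both Klf4 libraries (3.83).

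Among the integrin beta chains, ITGB1, the partner of the largest number of alpha chains (chr10:32900319-33005792), rose in the Oct4 and Sox2 lines. It was 16262, 19477 and 18479 in the GFP libraries, 59881 and 59148 in Oct4, 42914 and 36924 in Sox2, 13013 and 14918 in Klf4 and 15447 and 16648 in OSK. All 4 Oct4 and Sox2 libraries were above every other library, and the Oct4 libraries were the highest. The rise was 3.29-fold in Oct4 (log2 1.72 ± 0.10 SE, adjusted p = 1.1e-09 by limma) and 2.21-fold in Sox2 (log2 1.14 ± 0.10 SE, adjusted p = 8.59e-08 by limma). Klf4 was lower than GFP (log2 -0.37 ± 0.10 SE, adjusted p = 0.00663 by limma), a call that was lost without Klf4 replicate 1 (log2 change -0.27, limma adjusted p = 0.126). OSK overlapped GFP (log2 -0.17 ± 0.10 SE, adjusted p = 0.182 by limma), and its difference was called without GFP replicate 1 (-0.24, limma adjusted p = 0.0147).

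ITGB3, a partner of ITGAV that binds vitronectin and fibronectin (chr17:47253846-47311816), was 169.8, 273 and 314 in GFP, 1323 and 1333 in Oct4, 397 and 538 in Sox2, 141 and 146 in Klf4 and 197 and 229.9 in OSK. The Oct4 libraries were alike and far above all others, the Sox2 libraries came next, and the Klf4 libraries were below every other library. It rose 5.26-fold in Oct4 (log2 2.44 ± 0.19 SE, adjusted p = 6.89e-08 by limma) and 1.85-fold in Sox2 (log2 0.92 ± 0.19 SE, adjusted p = 0.0012 by limma). Klf4 was lower than GFP (log2 -0.76 ± 0.19 SE, adjusted p = 0.00647 by limma), which was lost without Klf4 replicate 1 (-0.74, limma adjusted p = 0.0517). OSK was not called against GFP (log2 -0.20 ± 0.19 SE, adjusted p = 0.469 by limma) and was called without GFP replicate 1 (-0.46, limma adjusted p = 0.0102).

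ITGB4, which pairs with ITGA6 in hemidesmosomes, the plaques that tie epithelial cells to laminin (chr17:75721328-75757818), went the other way. Its values were 12000, 13595 and 15016 in GFP, 4788 and 4918 in Oct4, 2178 and 2814 in Sox2, 17559 and 16816 in Klf4 and 4930 and 4382 in OSK. The Klf4 libraries were the highest, the GFP libraries came next, and the 6 libraries of the other lines were all below GFP. Sox2 had the lowest level, 0.184 times GFP (log2 -2.44 ± 0.10 SE, adjusted p = 3.95e-11 by limma). Oct4 (log2 -1.47 ± 0.10 SE, adjusted p = 1.78e-08 by limma) and OSK (log2 -1.54 ± 0.10 SE, adjusted p = 1.01e-08 by limma) also fell. The higher level in Klf4 (log2 0.35 ± 0.10 SE, adjusted p = 0.0164 by limma) was lost without Klf4 replicate 1 (0.32, limma adjusted p = 0.116), without Klf4 replicate 2 (0.38, limma adjusted p = 0.0568) and without GFP replicate 1 and OSK replicate 1 (0.27, limma adjusted p = 0.0581).

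ITGB8, which pairs with ITGAV and binds latent TGF-beta (chr7:20330702-20415754), was 2962, 2395 and 2783 in GFP, 1118 and 1187 in Oct4, 5025 and 4689 in Sox2, 5381 and 5062 in Klf4 and 6141 and 6309 in OSK. Oct4 was below all other libraries, and Sox2, Klf4 and OSK were above every GFP library. It fell in Oct4 (log2 -1.23 ± 0.08 SE, adjusted p = 8.64e-09 by limma) and rose in Sox2 (log2 0.84 ± 0.08 SE, adjusted p = 4.55e-07 by limma), Klf4 (log2 0.95 ± 0.08 SE, adjusted p = 2.26e-07 by limma) and OSK (log2 1.20 ± 0.08 SE, adjusted p = 9.94e-09 by limma). All 4 calls held in every alternative run.

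ITGB5, another partner of ITGAV and one known for its part in the uptake of photoreceptor outer segments by the RPE, changed little, from 7599 to 15794 over all libraries. It was lower in Klf4 (-0.44, limma adjusted p = 0.00978) and OSK (-0.46, limma adjusted p = 0.00589), calls lost without Klf4 replicate 1 (-0.33, limma adjusted p = 0.137) and without OSK replicate 1 (-0.44, limma adjusted p = 0.0588). Its small rises in Oct4 (0.35) and Sox2 (0.32) were called while the libraries overlapped with GFP, and were lost in 9 and 12 of 23 alternatives. These included leaving out GFP replicate 1 (0.25 and 0.22, limma adjusted p = 0.0591 and 0.0864), GFP replicate 3 (0.0639 and 0.078), Oct4 replicate 1 for Oct4 (0.18, 0.378), and Sox2 replicate 1 (0.20, 0.367) or either OSK library (0.0594 and 0.0609) for Sox2.

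Among the alpha chains that bind the arginine-glycine-aspartate motif, ITGAV (chr2:186590065-186680901) followed ITGB1 in direction in Oct4, Sox2 and Klf4. ITGA5 rose in every factor line, Klf4 included. ITGAV was 14949, 16378 and 16605 in GFP, 29194 and 25482 in Oct4, 38668 and 35564 in Sox2, 12839 and 14150 in Klf4 and 17932 and 18480 in OSK. The Sox2 libraries were the highest, the Oct4 libraries came next, and the Klf4 libraries were the lowest. It rose 1.71-fold in Oct4 (log2 0.77 ± 0.08 SE, adjusted p = 2.08e-06 by limma) and 2.32-fold in Sox2 (log2 1.22 ± 0.08 SE, adjusted p = 9.39e-09 by limma). In OSK it did not pass by limma (log2 0.19 ± 0.08 SE, adjusted p = 0.0853 by limma) and was called higher by DESeq2 (0.19, adjusted p = 0.048). The small difference in Klf4 (log2 -0.24 ± 0.08 SE, adjusted p = 0.0344 by limma) was lost in 9 of 23 alternatives, among them those without Klf4 replicate 1 (-0.17, limma adjusted p = 0.291), GFP replicate 2 (-0.23, 0.0848), GFP replicate 3 (-0.22, 0.101) and OSK replicate 1 or 2 (-0.24, 0.0567 and 0.0577).

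ITGA5, the alpha chain of the main fibronectin receptor (chr12:54395261-54419460), was 884, 1284 and 1217 in GFP, 2409 and 2139 in Oct4, 3787 and 3744 in Sox2, 6607 and 7071 in Klf4 and 5339 and 5050 in OSK. No 2 lines overlapped, and the order from low to high was GFP, Oct4, Sox2, OSK and Klf4. It rose in Oct4 (log2 1.03 ± 0.12 SE, adjusted p = 3.8e-06 by limma), Sox2 (log2 1.76 ± 0.12 SE, adjusted p = 6.69e-09 by limma), Klf4 (log2 2.62 ± 0.12 SE, adjusted p = 1.6e-10 by limma) and OSK (log2 2.22 ± 0.12 SE, adjusted p = 6.57e-10 by limma), by 2.02-, 3.34-, 6.06- and 4.6-fold. These 4 calls held in every alternative. Among the highest lines, OSK was above Sox2 (0.46, limma adjusted p = 0.0087) and below Klf4 (-0.40, limma adjusted p = 0.0379). The first call was lost without Sox2 replicate 2 (0.46, limma adjusted p = 0.0522) or OSK replicate 1 (0.42, 0.073), and the second in 8 of 23 alternatives, among them those without either replicate of Sox2 (0.0558 and 0.056), Klf4 (0.0936 and 0.179) or OSK (0.106 and 0.211).

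**Figure D2:**
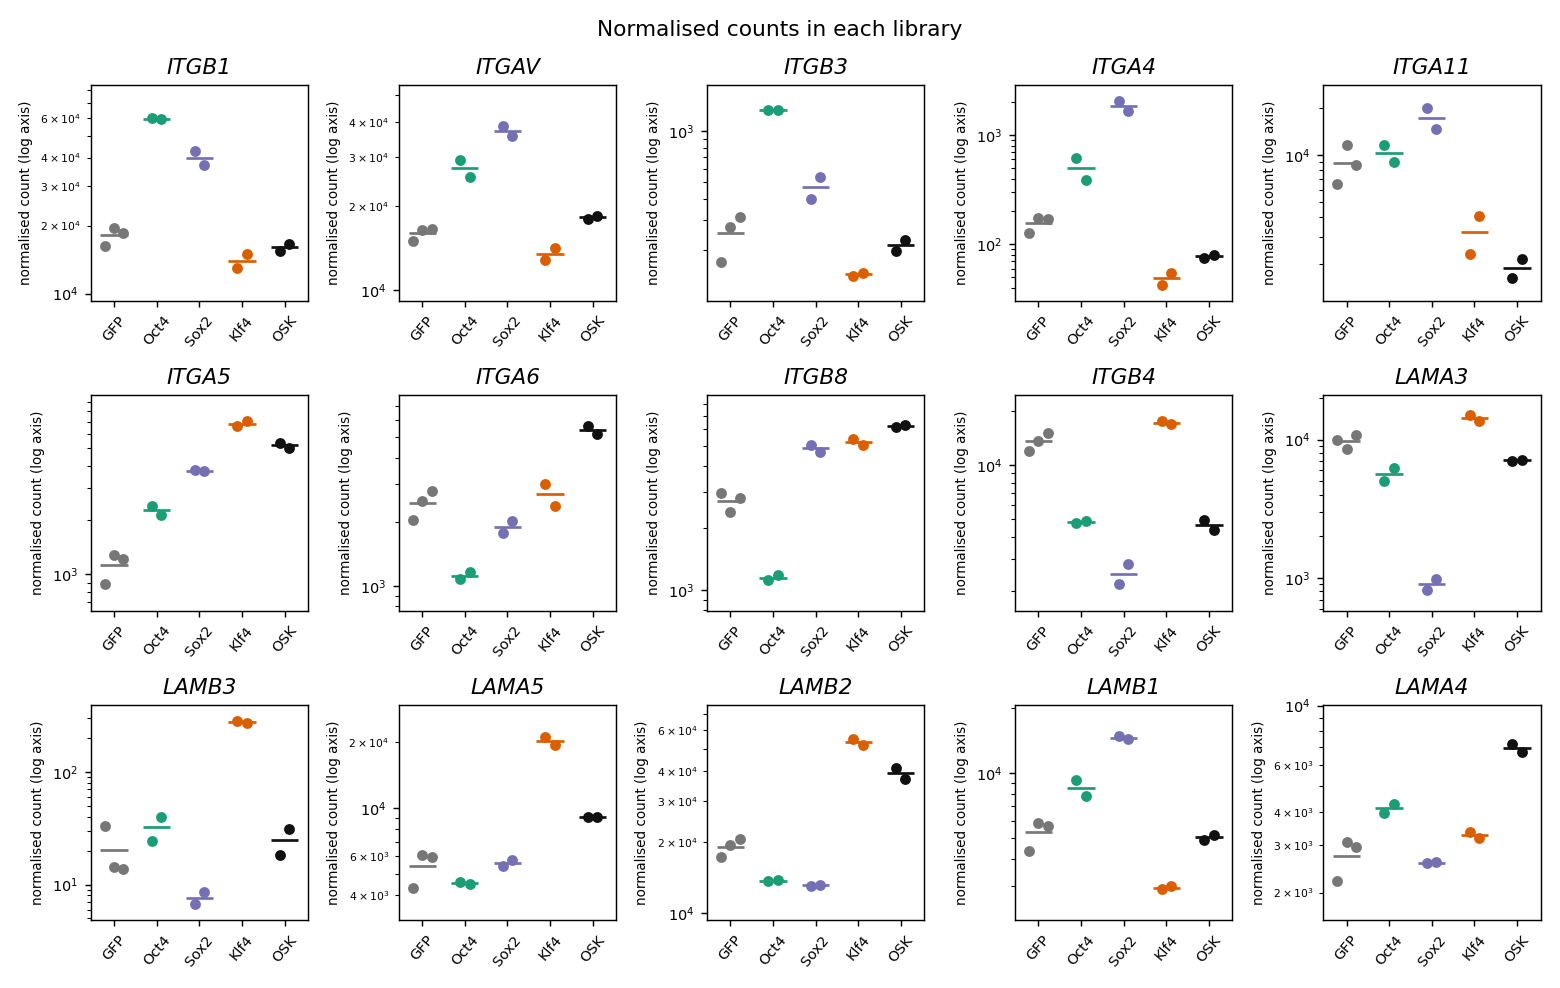
Normalised count (log axis, a scale of its own in each panel) of 15 integrin and laminin genes in each library (points) by line, with the mean of the libraries as a bar. ITGB1, ITGAV and ITGB3 are highest in Oct4 or Sox2, ITGB4, LAMA3, LAMB3, LAMA5 and LAMB2 are highest in Klf4, and ITGA6 and LAMA4 are highest in OSK.

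The laminin-binding alpha chains differed from each other. ITGA6, the partner of ITGB4 and ITGB1 (chr2:172427354-172506282), was 2042, 2496 and 2786 in GFP, 1072 and 1157 in Oct4, 1769 and 2024 in Sox2, 3022 and 2378 in Klf4 and 5638 and 5144 in OSK. The OSK libraries were above all others and the Oct4 libraries below all others, while Klf4 overlapped GFP. It rose 2.21-fold in OSK (log2 1.15 ± 0.12 SE, adjusted p = 1.11e-06 by limma) and fell in Oct4 (log2 -1.12 ± 0.12 SE, adjusted p = 1.66e-06 by limma). The lower level in Sox2 (log2 -0.36 ± 0.12 SE, adjusted p = 0.0245 by limma) was lost without Sox2 replicate 1 (-0.26, limma adjusted p = 0.234), GFP replicate 2 (-0.33, 0.0604) or GFP replicate 3 (-0.25, 0.109).

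ITGA3, the other widely used laminin receptor chain of epithelia (chr17:50055968-50090481), was 20650, 23968 and 23051 in GFP, 22882 and 19258 in Oct4, 29622 and 26939 in Sox2, 18773 and 20100 in Klf4 and 10349 and 10830 in OSK. The OSK libraries were the lowest, at 0.469 times GFP, and did not overlap any other line (log2 -1.09 ± 0.09 SE, adjusted p = 9.07e-08 by limma). Sox2 was the highest (log2 0.33 ± 0.09 SE, adjusted p = 0.00791 by limma), a call lost without Sox2 replicate 1 (0.26, limma adjusted p = 0.115). Klf4 did not pass (-0.21, limma adjusted p = 0.0834) and was called lower without GFP replicate 1 (-0.28, 0.00706). In OSK, ITGA6 rose and ITGA3 fell.

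ITGA7, a laminin receptor chain best known from muscle, moved by less than 2-fold in every comparison with GFP. It was higher in Oct4 (0.50, limma adjusted p = 0.000103), Klf4 (0.65, limma adjusted p = 8.02e-06) and OSK (0.63, limma adjusted p = 8.09e-06). Sox2 was slightly lower (-0.23, limma adjusted p = 0.0243), a call lost without either Sox2 replicate (-0.20 and -0.27, limma adjusted p = 0.164 and 0.0677) and without GFP replicate 2 or 3 (-0.20 and -0.22, 0.0829 and 0.0647). ITGA7 lies over exons of BLOC1S1 and METTL7B on the opposite strand. Those genes reached 129.0 and 142 in any library, against at least 3817 for ITGA7.

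Of the collagen-binding chains, ITGA1 and ITGA11 fell in Klf4 and OSK. ITGA1 (chr5:52787896-52959210) was 5395, 6110 and 6030 in GFP, 5318 and 4788 in Oct4, 15456 and 14697 in Sox2, 2462 and 2761 in Klf4 and 3461 and 3847 in OSK. The 5 lines did not overlap, Sox2 was the highest and Klf4 the lowest. It rose in Sox2 (log2 1.37 ± 0.08 SE, adjusted p = 1.45e-09 by limma) and fell in Klf4 (log2 -1.16 ± 0.08 SE, adjusted p = 1.88e-08 by limma) and OSK (log2 -0.68 ± 0.08 SE, adjusted p = 5.05e-06 by limma), and each of these 3 calls held in every alternative. Oct4 was just short of the threshold (-0.21, limma adjusted p = 0.0513) and was called without GFP replicate 1 (-0.27, limma adjusted p = 0.00606) or Oct4 replicate 1 (-0.29, 0.0499). ITGA1 shares exon bases on its own strand with PELO, which reached 1005 in any library.

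ITGA11, which binds fibrillar collagen and is known from fibroblasts (chr15:68296533-68432162), was 6524, 11700 and 8669 in GFP, 11723 and 9081 in Oct4, 20201 and 14701 in Sox2, 2342 and 4065 in Klf4 and 1636 and 2171 in OSK. The GFP and Oct4 libraries overlapped, and the 4 Klf4 and OSK libraries were below all others. It fell to 0.357 times GFP in Klf4 (log2 -1.50 ± 0.23 SE, adjusted p = 0.000109 by limma) and to 0.212 times GFP in OSK (log2 -2.21 ± 0.23 SE, adjusted p = 1.43e-06 by limma). The rise in Sox2 (log2 0.98 ± 0.23 SE, adjusted p = 0.00278 by limma) was lost without Sox2 replicate 1 (0.75, limma adjusted p = 0.0692). The summed level of 7 fibroblast markers moved with this gene in Klf4 and OSK: it was 13886 to 16433 in GFP, 7300 to 8537 in Klf4 and 5147 to 5952 in OSK, and 12839 to 15528 in Sox2. That sum was carried by COL1A1 and PDGFRB, while DCN and LUM were at most 12.3 in any library, and its part in the result was not tested. In bulk RNA, fewer cells of a type and less RNA per cell cannot be told apart.

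ITGA2, the other common collagen receptor chain (chr5:52989326-53094779), was at low level: 19.9, 9.10 and 5.83 in GFP, 40.6 and 28.6 in Oct4, 104 and 89.0 in Sox2, 10.4 and 14.8 in Klf4 and 8.67 and 9.90 in OSK. Both Sox2 libraries were above all others, the Oct4 libraries came next, and Klf4 and OSK overlapped GFP. It rose 8.34-fold in Sox2 (log2 3.11 ± 0.45 SE, adjusted p = 3.51e-05 by limma), and without GFP replicate 1 the change was 3.55 (limma adjusted p = 8.98e-07). The rise in Oct4 (log2 1.64 ± 0.45 SE, adjusted p = 0.00902 by limma) was lost without Oct4 replicate 1 (1.39, limma adjusted p = 0.102). ITGA10 (chr1:145891208-145910189) was 50.6, 2.02 and 16.5 in GFP, 49.9 and 25.2 in Oct4, 65.1 and 38.5 in Sox2, 3.47 and 4.57 in Klf4 and 16.3 and 7.70 in OSK. The GFP libraries were so far apart that every line overlapped them, and no line was called against GFP. Without GFP replicate 1 it was called higher in Oct4 (2.33, limma adjusted p = 0.00916) and Sox2 (2.81, 0.00203), and without GFP replicate 2 lower in Klf4 (-2.59, 0.00279).

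ITGA4, a receptor chain for fibronectin and for VCAM1 that is known from leukocytes and neural crest derivatives (chr2:181457202-181536187), ranged widely across the lines. It was 128, 173 and 170.1 in GFP, 611 and 390.3 in Oct4, 2049 and 1641 in Sox2, 42.8 and 54.9 in Klf4 and 75.9 and 79.2 in OSK. No lines overlapped, and the order from high to low was Sox2, Oct4, GFP, OSK and Klf4. It rose 11.7-fold in Sox2 (log2 3.55 ± 0.19 SE, adjusted p = 4.44e-10 by limma) and 3.19-fold in Oct4 (log2 1.64 ± 0.19 SE, adjusted p = 3.84e-06 by limma), and fell in Klf4 (log2 -1.66 ± 0.19 SE, adjusted p = 4.42e-06 by limma) and OSK (log2 -1.0 ± 0.19 SE, adjusted p = 0.000474 by limma). These 4 calls held in every alternative. OSK and Klf4 lay closest (log2 0.67 ± 0.21 SE, adjusted p = 0.0295 by limma), and that call was lost in 9 of 23 alternatives, among them those without Klf4 replicate 1 (0.49, limma adjusted p = 0.236) or either OSK library (0.70 and 0.64, 0.0999 and 0.148). The leukocyte marker PTPRC (CD45) was at most 2.24 in any library.

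Among the laminin alpha chains, LAMA3, the alpha chain of epithelial laminins that bind ITGA6 with ITGB4 (chr18:23689443-23956222), fell most in Sox2. Its values were 9983, 8608 and 10794 in GFP, 5052 and 6273 in Oct4, 816 and 984 in Sox2, 15065 and 13581 in Klf4 and 7019 and 7171 in OSK. Both Sox2 libraries were below all others and both Klf4 libraries above all others, with the remaining lines between them. Sox2 was at 0.0919 times GFP (log2 -3.44 ± 0.11 SE, adjusted p = 1.46e-12 by limma). It rose in Klf4 (log2 0.55 ± 0.11 SE, adjusted p = 0.000833 by limma) and fell in Oct4 (log2 -0.79 ± 0.11 SE, adjusted p = 2.38e-05 by limma). The lower level in OSK (log2 -0.46 ± 0.11 SE, adjusted p = 0.00275 by limma) was lost without GFP replicate 1 and OSK replicate 1 (-0.43, limma adjusted p = 0.0529). LAMA3 and ITGB4 were both lowest in Sox2 and highest in Klf4. The summed level of 18 RPE markers was also lowest in Sox2, at 5835 to 5910, against 15941 to 19653 in GFP. It was 7853 to 8871 in Oct4, 9213 to 9492 in OSK and 11568 to 13344 in Klf4. The fall of the sum in Sox2 was carried mainly by PMEL, TYRP1 and MITF. PAX6 did not fall, at 3156 and 3160 in Sox2 and 2758 to 2997 in GFP. MERTK and MLANA were also higher in both Sox2 libraries than in every GFP library. The part of the RPE sum in the result was not tested.

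LAMA5, the alpha chain most widely found in adult basement membranes (chr20:62307955-62367312), was 4289, 6073 and 5932 in GFP, 4574 and 4492 in Oct4, 5448 and 5771 in Sox2, 21124 and 19398 in Klf4 and 9084 and 9072 in OSK. The Klf4 libraries were above all others and the OSK libraries second, while Oct4 and Sox2 overlapped GFP. It rose 3.73-fold in Klf4 (log2 1.92 ± 0.11 SE, adjusted p = 3.19e-09 by limma) and 1.67-fold in OSK (log2 0.76 ± 0.11 SE, adjusted p = 4.85e-05 by limma). Oct4 was not called (log2 -0.24 ± 0.11 SE, adjusted p = 0.104 by limma) and was called without GFP replicate 1 (-0.40, limma adjusted p = 1.85e-05). Its exons overlap those of ADRM1 on the opposite strand, which reached 1682 in any library.

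LAMA4, the alpha chain of vascular and muscle laminins (chr6:112108760-112254939), was 2204, 3087 and 2949 in GFP, 3960 and 4289 in Oct4, 2578 and 2594 in Sox2, 3376 and 3195 in Klf4 and 7201 and 6720 in OSK. The OSK libraries were above all others, and the GFP libraries were spread around those of Sox2. It rose 2.53-fold in OSK (log2 1.36 ± 0.11 SE, adjusted p = 5.84e-08 by limma) and 1.5-fold in Oct4 (log2 0.60 ± 0.11 SE, adjusted p = 0.000354 by limma). Klf4 (0.27, limma adjusted p = 0.0635) and Sox2 (-0.07, limma adjusted p = 0.64) did not pass. Klf4 was called higher without GFP replicate 2 (0.37, limma adjusted p = 0.0166) or GFP replicate 3 (0.33, 0.0463), and Sox2 lower without GFP replicate 1 (-0.22, 0.00799).

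LAMA2, the laminin alpha chain of skeletal muscle (chr6:128883141-129516569), was at low level: 213, 242 and 277 in GFP, 124 and 275 in Oct4, 104 and 139.6 in Sox2, 135 and 123 in Klf4 and 92.1 and 94.6 in OSK. The 2 Oct4 libraries were far apart, 1 of them within the GFP range, and all Sox2, Klf4 and OSK libraries were below GFP. It fell in OSK (log2 -1.37 ± 0.24 SE, adjusted p = 0.000302 by limma). The lower levels in Sox2 (log2 -1.0 ± 0.24 SE, adjusted p = 0.00359 by limma) and Klf4 (log2 -0.90 ± 0.24 SE, adjusted p = 0.00954 by limma) were lost without Sox2 replicate 1 (-0.79, limma adjusted p = 0.0707) and without Klf4 replicate 2 (-0.84, 0.0725). Oct4 was not called (-0.39, limma adjusted p = 0.239) and was called without Oct4 replicate 2 (-0.96, 0.00327).

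The beta chains LAMB1 and LAMB2 moved in opposite directions in 3 of the 4 lines. LAMB1, found in early and in vascular basement membranes (chr7:107923799-108003255), was 4354, 5856 and 5667 in GFP, 9241 and 7830 in Oct4, 14810 and 14346 in Sox2, 2896 and 2978 in Klf4 and 4902 and 5173 in OSK. Sox2 was the highest, Oct4 second and Klf4 the lowest, and OSK lay within the GFP range. It rose in Sox2 (log2 1.47 ± 0.11 SE, adjusted p = 1.47e-08 by limma) and Oct4 (log2 0.70 ± 0.11 SE, adjusted p = 7.09e-05 by limma) and fell in Klf4 (log2 -0.84 ± 0.11 SE, adjusted p = 1.34e-05 by limma). OSK did not pass (-0.06, limma adjusted p = 0.706) and was called lower without GFP replicate 1 (-0.19, 0.0303). Exons of LAMB1 overlap those of DLD on the opposite strand, which reached 1673 in any library.

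LAMB2, which replaces LAMB1 in retinal, glomerular and synaptic basement membranes (chr3:49121114-49133118), was 17323, 19465 and 20570 in GFP, 13691 and 13770 in Oct4, 13020 and 13207 in Sox2, 55001 and 51738 in Klf4 and 41404 and 37131 in OSK. All Klf4 and OSK libraries were above all GFP libraries, and all Oct4 and Sox2 libraries were below them. It rose 2.79-fold in Klf4 (log2 1.48 ± 0.08 SE, adjusted p = 2.22e-09 by limma) and 2.05-fold in OSK (log2 1.04 ± 0.08 SE, adjusted p = 6.75e-08 by limma), and fell in Sox2 (log2 -0.54 ± 0.08 SE, adjusted p = 7.13e-05 by limma) and Oct4 (log2 -0.47 ± 0.08 SE, adjusted p = 0.000311 by limma). LAMB1 changed in the opposite direction in Oct4, Sox2 and Klf4, and did not pass in OSK. The LAMB2 call in Oct4 was lost under scaling by the trimmed mean of M-values (TMM) over all features (-0.43, limma adjusted p = 0.0547).

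LAMB3, the beta chain of an epidermal anchoring laminin that also holds LAMA3 (chr1:209614870-209652466), was 32.8, 14.2 and 13.6 in GFP, 24.4 and 40.1 in Oct4, 6.73 and 8.56 in Sox2, 282 and 273 in Klf4 and 18.4 and 30.8 in OSK. Both Klf4 libraries were far above every other library, and the other lines overlapped GFP or lay just below it. It rose 13.8-fold in Klf4 (log2 3.83 ± 0.40 SE, adjusted p = 1.66e-06 by limma). The lower level in Sox2 (log2 -1.19 ± 0.40 SE, adjusted p = 0.0244 by limma) was lost in 7 of 23 alternatives, among them those without GFP replicate 1 (-0.79, limma adjusted p = 0.0873), Sox2 replicate 1 (-1.03, 0.143) or Sox2 replicate 2 (-1.34, 0.0569). Oct4 was called higher without GFP replicate 1 (1.12, 0.0193) and was not called with it (0.72, 0.172). The summed level of 5 basal keratinocyte markers was 160 and 181 in Klf4, 108 in GFP replicate 1, and 35.4 and 37.9 in the other GFP libraries, carried in Klf4 by KRT14 at 111 and 147. TP63, which encodes the p63 factor of basal cells, was 22.8, 34.4 and 29.2 in GFP and lower in Klf4, at 6.94 and 5.71. KRT5 was at most 4.97 in any library. The part of these genes in the result was not tested.

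LAMC1, the gamma chain of most laminins, moved by less than 2-fold and was taken up after its values were seen. It was 4854, 5424 and 5765 in GFP, 6314 and 6448 in Oct4, 9844 and 10009 in Sox2, 5663 and 5607 in Klf4 and 8812 and 8577 in OSK. The Sox2 and OSK libraries were above all others. It rose in Sox2 (log2 0.90 ± 0.07 SE, adjusted p = 5.12e-08 by limma) and OSK (log2 0.70 ± 0.07 SE, adjusted p = 9.35e-07 by limma), did not pass in Klf4 (0.08, limma adjusted p = 0.436), and was slightly higher in Oct4 (0.26, limma adjusted p = 0.00949), which was lost without Oct4 replicate 2 (0.24, 0.0737).

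To compare chains with each other, levels were divided by exon length in kilobases (normalised counts per kb), and each chain's share of the summed level of its family was taken. Shares describe the make-up and carry no test. Of the integrin beta chains, ITGB1 held 43.1% ± 0.66 (SD, n = 3) in GFP, 75.1% ± 1.8 (n = 2) in Oct4, 69.2% ± 0.84 in Sox2, 35.6% ± 2.0 in Klf4 and 52.7% ± 1.5 in OSK. ITGB4 held 28.7% ± 1.8 in GFP, 5.44% ± 0.28 in Oct4, 3.9% ± 1.1 in Sox2, 39.0% ± 2.7 in Klf4 and 13.6% ± 1.5 in OSK. Per kb, the ITGB4 and ITGB1 shares were close in Klf4, while ITGB1 held most of the beta chains in Oct4 and Sox2.

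Of the integrin alpha chains, ITGA3 held the largest share in GFP (34.3% ± 0.5) and Klf4 (30.2% ± 0.23). ITGAV held the largest share in Oct4 (40.0% ± 0.32), Sox2 (39.2% ± 0.57) and OSK (34.9% ± 1.0). ITGA5 held 2.2% ± 0.24 in GFP, 13.8% ± 0.11 in Klf4 and 10.8% ± 0.33 in OSK, and ITGA6 held 5.17% to 6.2% in the GFP libraries and 12.4% to 13.5% in the OSK libraries. The summed alpha chain level per kb was 6718 ± 605 in GFP, 8328 ± 734 in Oct4, 11534 ± 849 in Sox2, 6561 ± 366 in Klf4 and 6363 ± 53.2 in OSK.

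Of the laminin alpha chains, LAMA3 held 51.1% ± 5.9 in GFP, 35.6% ± 2.6 in Oct4, 8.88% ± 0.82 in Sox2, 36.3% ± 0.38 in Klf4 and 28.0% ± 0.79 in OSK. LAMA5 led in Sox2 (56.9% ± 0.016), Klf4 (52.7% ± 0.14) and OSK (36.7% ± 0.45, with LAMA4 next at 34.8% ± 1.2). Its level rose in Klf4 and OSK and did not pass the test in Sox2. The summed laminin alpha level per kb was 1310 ± 119 in GFP, 689 ± 27.9 in Sox2 and 2691 ± 169 in Klf4. Of the laminin beta chains, LAMB1 held 18.8% ± 1.4 in GFP, 34.3% ± 2.8 in Oct4, 48.4% ± 0.82 in Sox2, 4.41% ± 0.26 in Klf4 and 9.79% ± 1.0 in OSK, and LAMB2 held nearly all of the rest. LAMC1 held 98.9% ± 1.2 to 99.7% ± 0.038 of the gamma chains.

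**Figure D3:**
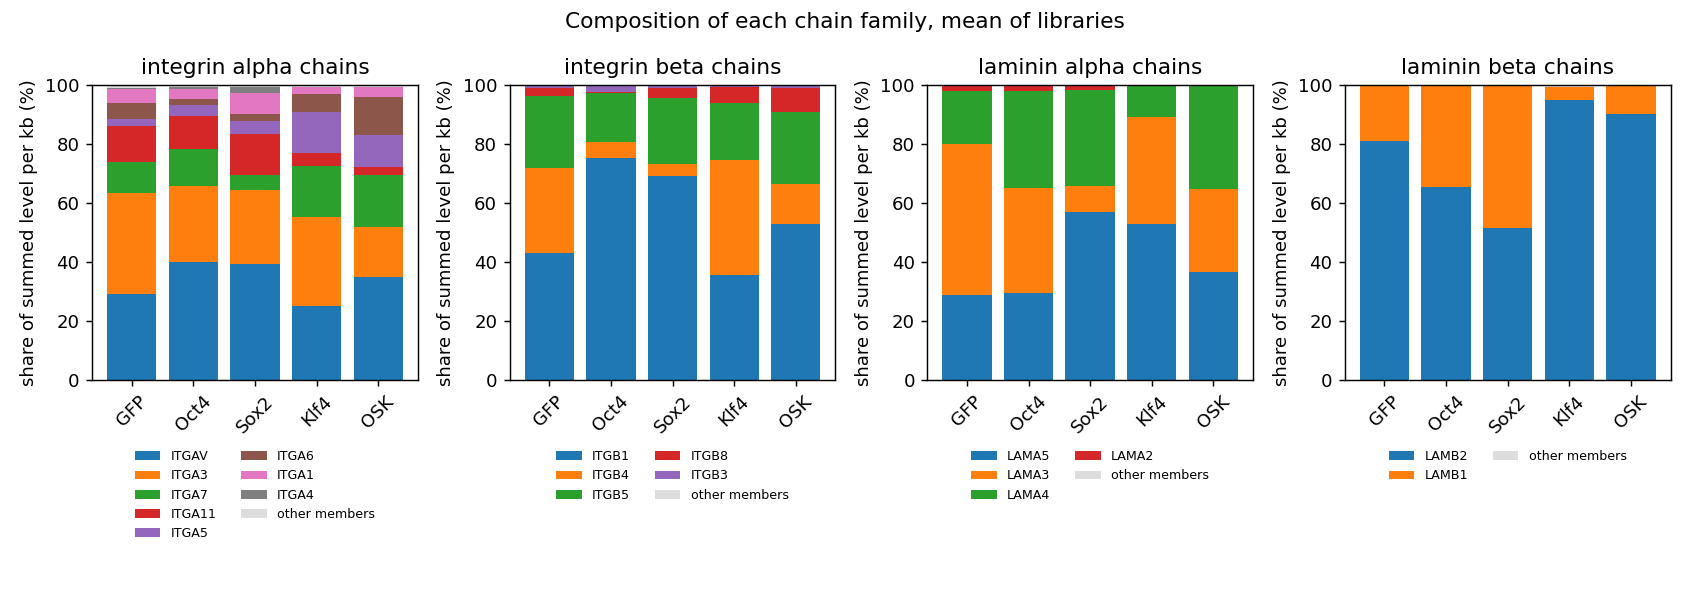
Share (percent, mean of the libraries of each line) of each chain in the summed normalised count per kb of its family, for integrin alpha, integrin beta, laminin alpha and laminin beta chains. ITGB1 takes 75.1% of the beta chains in Oct4 and 35.6% in Klf4, and LAMB1 takes 48.4% of the laminin beta chains in Sox2 and 4.41% in Klf4.

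Between the Sox2 and Klf4 lines 23 of the 32 tested genes passed, 13 higher and 10 lower in Sox2, against 40.8% of all genes tested, 20.1% higher and 20.7% lower. The median absolute log2 difference was 1.26, against 0.42 for all genes. Higher in Sox2 were ITGA4 (37.8-fold; log2 5.21 ± 0.21 SE, adjusted p = 1.49e-11 by limma), ITGA1 (5.77-fold; log2 2.53 ± 0.09 SE, adjusted p = 3.51e-12 by limma) and LAMB1 (4.96-fold; log2 2.31 ± 0.12 SE, adjusted p = 2.12e-10 by limma). Higher in Klf4 were LAMB3 (36.3-fold; log2 -5.02 ± 0.43 SE, adjusted p = 1.19e-07 by limma), LAMA3 (15.9-fold; log2 -4.0 ± 0.12 SE, adjusted p = 5.83e-13 by limma) and ITGB4 (6.89-fold; log2 -2.79 ± 0.11 SE, adjusted p = 2.15e-11 by limma). ITGB8 (-0.10, limma adjusted p = 0.388) and LAMA2 (-0.10, limma adjusted p = 0.811) did not pass. The 95% interval was -0.29 to 0.09 for ITGB8 and -0.67 to 0.47 for LAMA2. The called differences of ITGA10 (without Sox2 replicate 1, 2.99, limma adjusted p = 0.0683), ITGA6 (without Sox2 replicate 1, -0.41, 0.0748, and without Klf4 replicate 1, -0.33, 0.104) and LAMA4 (without either Sox2 replicate, 0.113 and 0.1, or either Klf4 replicate, 0.146 and 0.0631) depended on single libraries.

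**Figure D4:**
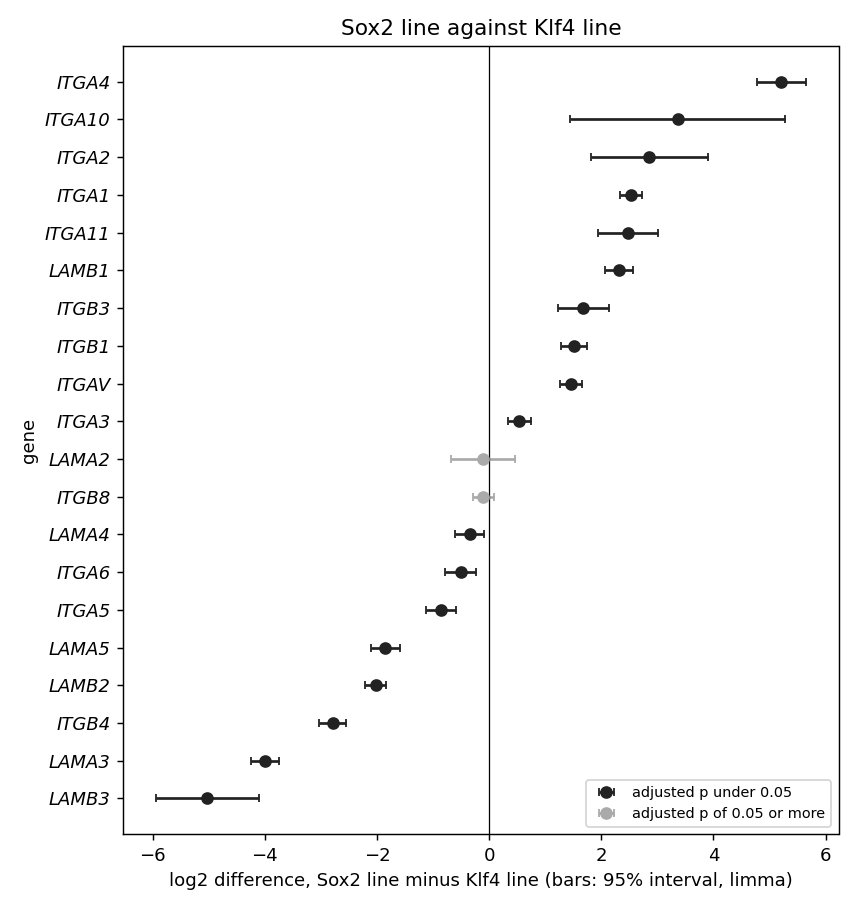
Log2 difference between the Sox2 and the Klf4 line (Sox2 minus Klf4, horizontal axis) for the 20 genes described with tests (vertical axis), with 95% intervals from limma as bars; grey marks an adjusted p of 0.05 or more. ITGA4 is at 5.21 and LAMB3 at -5.02, and ITGB8 and LAMA2, both at -0.10, are the 2 grey points.

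Between Oct4 and Klf4 21 of the 32 passed, 12 higher and 9 lower in Oct4, against 41.7% of all genes, 21.8% and 20.0%. ITGB1 was 4.26-fold higher in Oct4 (log2 2.09 ± 0.10 SE, adjusted p = 2.3e-10 by limma), ITGB3 9.24-fold higher (log2 3.20 ± 0.21 SE, adjusted p = 6.05e-09 by limma), and ITGB8 4.53-fold lower (log2 -2.18 ± 0.09 SE, adjusted p = 2.71e-11 by limma). The ITGA10 call was lost without Oct4 replicate 1 (2.39, limma adjusted p = 0.137) or Klf4 replicate 1 or 2 (2.71 and 3.03, 0.0846 and 0.0531). That of ITGA2 was lost without either library of Oct4 (1.14 and 1.63, 0.193 and 0.059), Sox2 (0.0538 and 0.0526) or Klf4 (1.15 and 1.62, 0.172 and 0.0529). That of LAMA4 was lost in 11 of 23 alternatives, among them those without any 1 library of Oct4 (0.0653 and 0.197), Sox2 (both 0.0514), Klf4 (0.0775 and 0.163) or OSK (0.0518 and 0.0531). LAMA2 was not called and was called without Oct4 replicate 1 (1.08, 0.00136).

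Between Oct4 and Sox2 18 of the 32 passed, 7 higher and 11 lower in Oct4, against 33.4% of all genes, 18.0% and 15.4%. These 2 lines moved ITGB1, ITGAV, ITGA4, ITGB3 and LAMB1 in 1 direction from the shared GFP libraries, and differed from each other in size. ITGB1 was higher in Oct4 (log2 0.58 ± 0.10 SE, adjusted p = 0.000403 by limma), as was ITGB3 (log2 1.52 ± 0.21 SE, adjusted p = 3.76e-05 by limma), whereas ITGA4 (log2 -1.91 ± 0.21 SE, adjusted p = 2.34e-06 by limma), ITGAV (log2 -0.44 ± 0.09 SE, adjusted p = 0.00129 by limma) and LAMB1 (log2 -0.78 ± 0.12 SE, adjusted p = 6.64e-05 by limma) were higher in Sox2. LAMA3 was 6.29-fold higher in Oct4 (log2 2.65 ± 0.12 SE, adjusted p = 1.27e-10 by limma) and ITGB8 was 4.21-fold higher in Sox2 (log2 -2.07 ± 0.09 SE, adjusted p = 8.51e-11 by limma).

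The OSK line carries the 3 factors together, and its comparison with each single line shows where its integrin and laminin levels lay. Against Oct4, 19 of the 32 passed, 8 higher and 11 lower in OSK, against 40.3% of all genes, 18.4% and 21.9%. Against Sox2, 20 passed, 10 higher and 10 lower, against 40.5%, 20.0% and 20.5%. Against Klf4, 14 passed, 7 higher and 7 lower, against 21.5%, 9.56% and 11.9%. The rises of ITGB1, ITGB3 and ITGAV in the single Oct4 and Sox2 lines had no counterpart that passed by limma in OSK. OSK was lower than Oct4 for ITGB1 (log2 -1.89 ± 0.10 SE, adjusted p = 9.84e-10 by limma) and ITGB3 (log2 -2.63 ± 0.21 SE, adjusted p = 6.98e-08 by limma). It was lower than Sox2 for ITGAV (log2 -1.03 ± 0.09 SE, adjusted p = 2e-07 by limma) and ITGA4 (log2 -4.55 ± 0.21 SE, adjusted p = 1.11e-10 by limma). OSK had a lower POU5F1 level than the Oct4 line and a lower SOX2 level than the Sox2 line, as given above. Its KLF4 level was 24202 to 24470, against 22142 to 24205 in the Klf4 line. The part of these levels in the results was not tested.

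Against the Klf4 line, OSK was lower for LAMB3 (log2 -3.49 ± 0.43 SE, adjusted p = 2.03e-05 by limma), ITGB4 (log2 -1.89 ± 0.11 SE, adjusted p = 1.16e-08 by limma), LAMA5 (log2 -1.16 ± 0.12 SE, adjusted p = 4.01e-06 by limma), LAMA3 (log2 -1.01 ± 0.12 SE, adjusted p = 1.03e-05 by limma) and ITGA3 (log2 -0.88 ± 0.10 SE, adjusted p = 7.33e-06 by limma). It was higher for LAMA4 (log2 1.08 ± 0.12 SE, adjusted p = 5.31e-06 by limma), ITGA6 (log2 1.01 ± 0.13 SE, adjusted p = 3.04e-05 by limma) and LAMB1 (log2 0.78 ± 0.12 SE, adjusted p = 0.000118 by limma). ITGB1 (0.20, limma adjusted p = 0.2) and ITGB8 (0.25, limma adjusted p = 0.0547) did not pass, with 95% intervals of -0.02 to 0.42 and 0.06 to 0.44. ITGB8 was called higher in OSK by DESeq2 (0.26, adjusted p = 0.0314) and by limma with a mean of at least 50 (0.25, 0.0412), with the 2 groups alone (0.25, 0.0189), and without GFP replicate 1 (0.25, 0.0133) or 2 (0.25, 0.0209). ITGA6 and LAMA4 were higher in OSK than in each of the other 4 lines. For ITGA6 the differences were 2.27 from Oct4, 1.51 from Sox2 and 1.01 from Klf4 (limma adjusted p = 1.47e-09, 1.35e-07 and 3.04e-05). For LAMA4 they were 0.76, 1.43 and 1.08 (8.32e-05, 8.51e-08 and 5.31e-06).

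The 15 genes under 100 included chains of other cell types. ITGAL, ITGAM, ITGAX, ITGAD and their partner ITGB2 are leukocyte integrins, ITGA2B is the platelet fibrinogen receptor chain, and ITGB7 is a lymphocyte chain. Of the 15, 13 had their highest value in GFP replicate 1. ITGAL was 74.5, 3.03 and 0.97 in GFP, ITGAM 52.6, 5.06 and 0.97, ITGAX 60.6, 0 and 0 and ITGAD 58.6, 1.01 and 1.94, so GFP replicate 1 held most of the reads in each case. In 12 of the 15, OSK replicate 1 was above OSK replicate 2, as for ITGAL at 18.4 and 5.50. Neither count was set beside the share over all low features. GFP replicate 1 and OSK replicate 1 detected more features than the other 9 libraries, as given above. The counts are thus not read as a result about these genes. The summed level of 10 leukocyte markers was likewise 181 in the highest GFP library and 28.2 in the lowest, and PTPRC was at most 2.24. Their part in the values was not tested.

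Calls in these low genes rested on few reads. ITGB2 was called lower in Sox2 (log2 -1.71 ± 0.64 SE, adjusted p = 0.0415 by limma) and Klf4 (log2 -1.76 ± 0.64 SE, adjusted p = 0.044 by limma), which was lost in 10 and 13 of 22 alternatives. Without GFP replicate 1 the values were -1.17 (limma adjusted p = 0.136) and -1.21 (0.134), without Sox2 replicate 1 or 2 the first was -1.79 (0.128) and -1.64 (0.158), and without Klf4 replicate 2 the second was -1.08 (0.349). ITGA2B was called lower in Klf4 (log2 -1.85 ± 0.67 SE, adjusted p = 0.0439 by limma), which without GFP replicate 1 was -1.05 (0.145), and it was lost in 11 of 22 alternatives. LAMA1, a chain of embryonic basement membranes, was called lower in Sox2 (log2 -2.29 ± 0.80 SE, adjusted p = 0.0309 by limma). Without GFP replicate 1 it was -1.50 (0.103), and without Sox2 replicate 1 it was -1.03 (0.427). Without Sox2 replicate 2 it was -3.55 (0.00779). LAMC3 was 69.5, 4.05 and 3.89 in GFP and 1.12 and 1.71 in Sox2 and was not called in any line by limma (log2 -2.33 ± 1.00 SE, adjusted p = 0.0754 by limma in Sox2). In Sox2 it was called lower in 6 of its alternatives: by edgeR with TMM (-4.01, adjusted p = 0.0264) or median-of-ratios factors (-4.04, 0.0266), by DESeq2 (-4.16, 0.00592), and by limma with the replicate block (-2.98, 0.0238) or without GFP replicate 2 or 3 (-2.95 and -2.98, both 0.0371). All 6 kept GFP replicate 1. Only that library and OSK replicate 1, at 18.4, reached 10, so LAMC3 passed the filter on low values through them alone. The 6 calls are thus no separate support for a fall in Sox2.

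ITGB7 did not meet the rule for genes described with tests and was singled out after its values were seen. It was 26.8, 0 and 0 in GFP, 4.64 and 0 in Oct4, 1.12 and 1.71 in Sox2, 37.0 and 41.1 in Klf4 and 5.42 and 3.30 in OSK. Both Klf4 libraries were above every other library. Outside them only GFP replicate 1 reached 10, so without the Klf4 line the gene would not have passed the filter on low values. Its test is thus no separate support for a rise in Klf4. It was called higher in Klf4 (log2 3.72 ± 1.22 SE, adjusted p = 0.0273 by limma), which was lost in 10 of 22 alternatives, among them those without GFP replicate 2 or 3 (2.92, 0.0919 and 0.0975) or Klf4 replicate 1 or 2 (3.80 and 3.65, 0.125 and 0.133). The recovered reads gave 2.13 (adjusted p = 0.162) by edgeR with TMM, 2.11 (0.167) by edgeR with median-of-ratios factors and 2.13 (0.493) by DESeq2. The F test over the 5 groups gave an adjusted p of 0.0542. The Klf4 mean was 4.37-fold that of all GFP libraries, and at least 13.1-fold that of GFP replicates 2 and 3, both at 0, with a floor of 3 reads per library. Its exons overlap those of ZNF740 on the opposite strand, which reached 1076 in any library.

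The remaining genes were at the edge of detection or varied little. ITGAE, the chain that pairs with ITGB7, was 230 to 358 in all libraries, with a small call in Sox2 (0.37, limma adjusted p = 0.0442) that was lost in 12 of 23 alternatives. Outside GFP replicate 1, ITGA8 was at most 7.59, ITGA9 at most 7.7, ITGAD at most 6.5, ITGAX at most 7.59, ITGB6 at most 5.72 and LAMB4 at most 6.5 in any library.

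**Figure D5:**
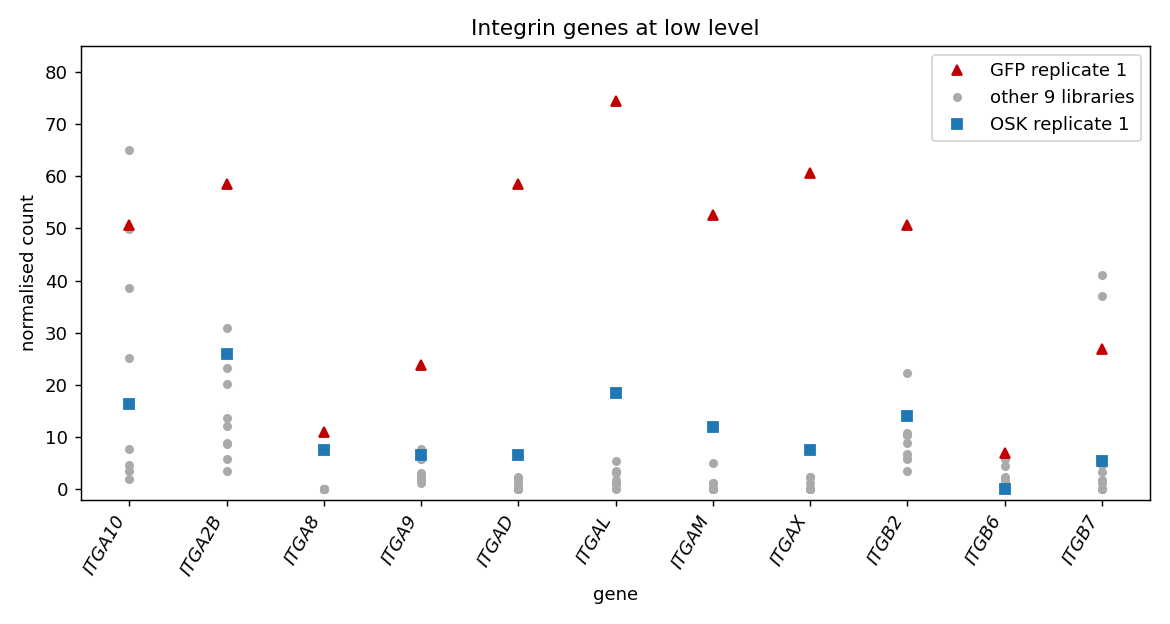
Normalised counts (linear axis) of the 11 integrin genes that stay under 100 outside GFP replicate 1, with GFP replicate 1 as triangles, OSK replicate 1 as squares and the other 9 libraries as circles. GFP replicate 1 is the highest library for 9 of the 11, and the 2 Klf4 circles of ITGB7 lie at 37.0 and 41.1.

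Other genes of the pathway were taken from 3 lists written from general knowledge, with no gene of the 38 among them. Of 28 tested integrin adaptors and hemidesmosome genes, 20 passed in Oct4 (16 higher, 4 lower), 21 in Sox2 (13 and 8), 19 in Klf4 (12 and 7) and 19 in OSK (7 and 12). Of 20 tested integrin ligands, 13 passed in Oct4 (11 and 2), 14 in Sox2 (11 and 3), 14 in Klf4 (2 and 12) and 15 in OSK (4 and 11). Their median log2 change was 0.93 in Oct4, 1.15 in Sox2, -0.74 in Klf4 and -0.51 in OSK, where the median of all genes tested was -0.02, -0.02, -0.02 and -0.01. Of 20 tested basement membrane partners, 17 (13 and 4), 14 (10 and 4), 18 (12 and 6) and 16 (9 and 7) passed. The shares of all genes called are those given above for the same comparisons. The count of called adaptors in Klf4 was 12 without Klf4 replicate 1, and that of called ligands in OSK was 9 without OSK replicate 1.

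FN1, the gene of fibronectin, which ITGA5 and ITGAV pairs bind, was 5613, 7716 and 6460 in GFP, 68911 and 61434 in Oct4, 47756 and 35718 in Sox2, 2798 and 4301 in Klf4 and 3450 and 4298 in OSK. All Oct4 and Sox2 libraries were far above all others, and the Klf4 and OSK libraries were below GFP. It rose in Oct4 (log2 3.31 ± 0.17 SE, adjusted p = 3.9e-10 by limma), where ITGB1 also was highest. VTN, the vitronectin gene, was 290.0, 255 and 312 in GFP and 19.1 and 48.8 in Sox2 (log2 -3.18 ± 0.28 SE, adjusted p = 1.5e-07 by limma). Its fall was -2.52 without Sox2 replicate 1 and -3.83 without Sox2 replicate 2. VTN was also called lower in Oct4, at 94.1 and 143, and in OSK, at 159 and 149.6. EDIL3, a ligand of ITGAV pairs, rose in Sox2 (log2 3.14 ± 0.13 SE, adjusted p = 2.81e-11 by limma), Oct4 (log2 2.07 ± 0.13 SE, adjusted p = 4.48e-09 by limma) and OSK (log2 1.94 ± 0.13 SE, adjusted p = 8.69e-09 by limma). L1CAM, an adhesion molecule that binds integrins, was 19.9, 4.05 and 8.75 in GFP and 115 and 67.4 in Klf4 (log2 3.14 ± 0.57 SE, adjusted p = 0.00049 by limma). POSTN, the periostin gene, was higher in Oct4 (log2 2.10 ± 0.53 SE, adjusted p = 0.00507 by limma), which was lost without Oct4 replicate 1 (1.91, limma adjusted p = 0.0649), and TNC, the tenascin C gene, was lower in Klf4 (log2 -2.02 ± 0.57 SE, adjusted p = 0.0119 by limma), which was lost without Klf4 replicate 1 (-1.50, 0.133). The matricellular ligand gene CCN2 fell in OSK (log2 -1.94 ± 0.15 SE, adjusted p = 3.36e-08 by limma). CCN2 was also called lower in Klf4, at 8748 and 10022, and higher in Oct4 and Sox2. POSTN was also called higher in Sox2 and lower in OSK.

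Among adaptors, which tie integrin tails to actin, LIMS2 rose in Oct4 (log2 2.54 ± 0.15 SE, adjusted p = 1.94e-09 by limma) and Sox2 (log2 2.44 ± 0.15 SE, adjusted p = 2.1e-09 by limma), and also in Klf4 (1.33, limma adjusted p = 3.64e-06) and OSK (0.94, 8.89e-05). FERMT2, a kindlin that activates integrins, rose in Oct4 (log2 1.95 ± 0.07 SE, adjusted p = 4.04e-12 by limma). It was also called higher in Sox2, at 3310 and 3146, in OSK, at 3020 and 3087, and in Klf4, at 1536 and 1641. Its GFP libraries were at 1335 to 1348. VCL, the vinculin gene, rose in Sox2 (log2 1.78 ± 0.11 SE, adjusted p = 2.81e-09 by limma). VCL was also called higher in Oct4, and lower in Klf4 and OSK. FERMT1, the epithelial kindlin, was 18.9, 4.05 and 6.80 in GFP, 57.8 and 42.3 in Klf4 and 68.3 and 64.9 in OSK, and rose in OSK (log2 2.87 ± 0.58 SE, adjusted p = 0.000816 by limma). Its higher level in Klf4 (log2 2.45 ± 0.58 SE, adjusted p = 0.00367 by limma) was lost without Klf4 replicate 1 (2.23, limma adjusted p = 0.0548). PLEC, the plectin gene, whose product links ITGB4 to keratin filaments, was 14645, 17766 and 18301 in GFP and 64737 and 60848 in Klf4 (log2 1.90 ± 0.09 SE, adjusted p = 3.36e-10 by limma). PLEC was also called higher in OSK, at 22165 and 20842, and lower in Oct4, at 14236 and 13697. TNS1, the tensin gene, fell in OSK (log2 -2.08 ± 0.18 SE, adjusted p = 1.3e-07 by limma) and was called higher in Oct4, Sox2 and Klf4. The muscle marker list, carried by the contractile gene ACTA2, was 2926 to 3735 in Oct4, 1781 to 2123 in Sox2 and 465 to 777 in GFP. Its part in the adaptor and ITGB1 changes was not tested.

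Among the basement membrane partners, NTN4 (netrin-4, which binds laminin gamma chains) rose in Oct4 (log2 1.95 ± 0.13 SE, adjusted p = 6.58e-09 by limma) and Sox2 (log2 2.24 ± 0.13 SE, adjusted p = 9.23e-10 by limma), and also in Klf4 (1.25, limma adjusted p = 1.41e-06) and OSK (0.91, 2.6e-05). Of the nidogens, which join laminin to collagen IV, NID2 rose in Oct4 (log2 1.28 ± 0.10 SE, adjusted p = 5.26e-08 by limma) and NID1 in Sox2 (log2 1.98 ± 0.11 SE, adjusted p = 1.31e-09 by limma). Both nidogen genes were called higher in Oct4 and OSK and lower in Klf4, and NID2 was not called in Sox2. COL4A3, a chain of the collagen IV network of mature basement membranes, was 2033, 2179 and 2048 in GFP, 3513 and 3719 in Oct4, 1422 and 1230 in Sox2, 6838 and 7290 in Klf4 and 16845 and 15770 in OSK. The lines did not overlap. It rose in OSK (log2 2.97 ± 0.07 SE, adjusted p = 1.38e-13 by limma), Klf4 (log2 1.76 ± 0.07 SE, adjusted p = 7.49e-11 by limma) and Oct4 (log2 0.79 ± 0.07 SE, adjusted p = 3.76e-07 by limma) and fell in Sox2 (log2 -0.66 ± 0.07 SE, adjusted p = 2.26e-06 by limma). COL4A6 rose in OSK at low level (log2 2.34 ± 0.36 SE, adjusted p = 8.18e-05 by limma) and was also called higher in Klf4. LOXL2, a collagen cross-linking enzyme, fell in Klf4 (log2 -2.06 ± 0.25 SE, adjusted p = 1.06e-05 by limma). LOXL2 was also called lower in OSK, at 516 and 802, and higher in Oct4.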

How the data were processed

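Polyadenylated RNA from 11 libraries of ARPE-19 lines was sequenced, with groups taken from the sample titles. The deposited values are a signal, namely gene counts that the authors divided by 1 factor per library. This was read from the values: in every library, 100.0% of the nonzero values are multiples of a fixed step, the worth of 1 read (tolerance 0.0061). Per the submitters' processing notes, STAR 2.7.1a and featureCounts 1.6.2 were used. The notes list a human and a mouse build with no role, and the strand setting and annotation are not given in the sources used here.

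Values were tested as log2(value + 1) with limma 3.58.1 (R 4.3.3, variance trend) over 18828 genes at 10 or above in at least 2 libraries. The model had a mean per line over all 11 libraries and 10 pairwise comparisons with an F test. The Benjamini-Hochberg adjustment ran over all genes tested, and the threshold was 0.05. A log2 change is on the log2(value + 1) scale, which understates changes of low genes. Folds are ratios of group means. The design foresaw this test for values that are not raw counts. Coordinates and exon lengths are from GENCODE on GRCh38. The scripts were tested on simulated data.

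Genes with an F test adjusted p under 0.05 and an absolute log2 change of at least 1 from GFP in any line are given with values and tests. Of the pathway lists, at most 2 called genes per list and comparison are named, those with the largest change whose libraries do not overlap. The members, the lists and the motifs were chosen with earlier results of these data known. Alternatives were edgeR 4.0.16 and DESeq2 1.42.0 on recovered reads, other scalings, pseudocounts and filters, a replicate block, and libraries left out. Results of 1 gene are not reported here.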

Additional observations from a re-analysis of the deposited data

How the results depend on the processing

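Over the 20 genes described with tests and the 10 comparisons, 158 of 200 differences were called, and 126 of these were called in the same direction in every one of up to 23 alternatives. Of the rest, 32 were lost in at least 1 alternative, and 22 of the 42 differences not called were called in at least 1. No called change of an integrin or laminin gene reversed. The 20 genes were chosen by the F test and the size of change in the same fit, so a high number of calls was set by that choice. Over all genes tested, 21.5% to 41.7% passed per comparison. The 10 comparisons share the same 11 libraries.

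Counts of called integrin and laminin genes with 1 library left out ran from 13 to 23 for Sox2 against GFP, where 13 was without Sox2 replicate 1, and from 13 to 21 for Klf4 against GFP, where 13 was without Klf4 replicate 1. For the adaptors in Klf4 they ran from 12 to 22, and TMM scaling over all features gave 11. For the ligands in OSK they ran from 9 to 15, and leaving out GFP replicate 1 and OSK replicate 1 gave 9. A line left with 1 library was assumed to vary like the other groups.

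Of 20 pairs of deviations from the group means at the same replicate number, 2 correlated above 0.1 (range -0.069 to 0.435). Both were between GFP and OSK (0.435 and 0.31), whose replicate 1 libraries stood apart as given above. Pairing by number thus cannot be told for GFP and OSK. With 2 libraries in a line, deviations mirror each other, so pairs among the factor lines repeat and are not separate checks. With the replicate block, 17 integrin and laminin genes were called in Oct4, 21 in Sox2, 21 in Klf4 and 17 in OSK against GFP, and 27 by the F test. The simulated data used to test the scripts held planted changes of 3 fold sizes at the depth of these libraries. How many were recovered, and so the size of change that this depth can detect, is not reported here.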
